A study of Mus musculus with 16 samples.

Results

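Heart-forming T-box genes were followed on 16 microarrays of differentiating murine embryonic stem cells (mESCs) treated with hawthorn extract. The genes were chosen by name as Tbx1, Tbx2, Tbx3, Tbx4, Tbx5, Tbx15, Tbx18 and Tbx20. These 8 genes were covered by 9 of the 60273 probes on the array, with 2 probes for Tbx20 and 1 for each other gene. Of the 9 probes, 6 exceeded background clearly in all arrays of 1 or more groups, and they were tested together with the 36727 probes that met this rule.

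The cells were CGR8-Myh6-GFP mESCs, a reporter line derived from the mouse line CGR8, in which the promoter of Myh6, the gene of a heart muscle myosin, drives green fluorescent protein. All groups carried this reporter and were treated on day 4 of spontaneous cardiac differentiation. DMSO, the vehicle, WS1442, a dry extract of hawthorn leaves with flowers at 0.25 mg/ml, or MeOH eluate, a fraction of that extract eluted with methanol at 0.1 mg/ml, was applied for 6 h or 24 h, with 2 DMSO, 3 WS1442 and 3 MeOH eluate arrays at each time point. The labels call the arrays of a group replicates without saying whether they come from separate cultures, so the p-values measure the spread between these arrays, which may be technical.

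T-box factors are transcription factors that share a DNA-binding domain, and several of them divide the embryonic heart into regions. Tbx5 and Tbx20 act with Nkx2-5 and Gata4 to turn on genes of the working chambers, whereas Tbx2 and Tbx3 are repressors that compete for similar sites and hold back the chamber programme in the atrioventricular canal and the conduction system. Tbx1 marks the second heart field, Tbx18 the sinus horns and epicardium, and Tbx4 and Tbx15 are better known from limb, lung and skeleton. According to the reference annotation, Tbx2 lies beside Tbx4 on 1 chromosome and Tbx3 beside Tbx5 on another, with 0 protein-coding genes between the members of either pair.

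Each level below is the signal of 1 oligonucleotide, so the probes behind the main comparison are shown. These are the first 30 bases of each as deposited, from oligonucleotides of 48 (Tbx2), 54 (Tbx3), 46 (Tbx5) and 44 (Tbx20) bases, followed by the second Tbx20 probe, of 48 bases. No base is capitalised, since no position within them was measured on its own.
Tbx2: gatctctggccttgggcttgagtgtcattg
Tbx3: atggtgttttggattggtgtactgagaggg
Tbx5: tctcaaaacacgtactttcggggcttccct
Tbx20: tgatacccaccacccccatcatccccagcg
Tbx20, second probe: gcactaaaccacgtagtaattgaattgttc
The whole Tbx20 probes differed in base composition, with 54.5% G and C in the first and 33.3% in the second. The file places the second probe on chromosome 9 from 24553060 to 24553119 (build mm9, as its header names), and gives no position for the other 8 probes. Which exon or untranslated region a probe lies in was not determined here.

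Across the 16 arrays, between 55.1% and 63.0% of gene spots were well above background and 0 spots were saturated. RNA integrity numbers ran from 8.6 to 10. Each time point was hybridised on a slide of its own, so that differences in level between 6 h and 24 h cannot be told apart from slide. Groups were compared within a time point, and between time points only the differences from DMSO were set against each other. Signals are arbitrary units on a log2 scale after quantile normalization, and levels are compared for 1 probe between groups. Where probes are combined, as in within-array differences and marker sums, the combined value is compared between groups. A higher signal of 1 probe than of another is not read as more RNA. Log2 (fold change) is the difference between 2 group means, given with its standard error (SE), and a probe was called at an adjusted p under 0.05 in limma after Benjamini-Hochberg adjustment over all tested probes. Among markers, Nkx2-5, Tnnt2 and Actc1 stood well above background on all arrays, whereas Myh6 itself was so on 1 of 2 DMSO and 2 of 3 WS1442 arrays at 6 h and on none at 24 h.

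Tbx2 and Tbx3, the repressor pair, were lower with treatment than with DMSO of the same time point. They were the T-box members called in the comparisons with DMSO. Tbx2 was lower with both preparations at both time points, by 1.66-fold to 5.07-fold. Tbx3 was lower with MeOH eluate at 6 h and with both preparations at 24 h, by 1.52-fold to 3.12-fold. With DMSO and with each preparation their means were higher at 24 h than at 6 h. Time and slide coincide, so a fall cannot be told apart from a smaller rise. Of the 16 values of Tbx5, Tbx20, Tbx1 and Tbx4 against DMSO, 0 were called by limma, 0 by Student's t-test after the same adjustment, and 1 (Tbx20 with MeOH eluate at 24 h) had an unadjusted limma p under 0.05.

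Of the 6 tested member probes, 1 was called lower with WS1442 at 6 h, against a background of 1.16% of all tested probes called lower in that comparison. With MeOH eluate at 6 h, 2 of 6 were called lower, where the background was 8.39%. At 24 h, 2 of 6 were called lower with WS1442 and 2 of 6 with MeOH eluate, beside backgrounds of 12.2% and 8.2%. None was called higher in any of these comparisons, where 3.52%, 7.85%, 11.3% and 8.92% of all tested probes were. By the limits of the study, a change of more than 2-fold at an unadjusted p under 0.05, the member probes called lower numbered 0, 1, 2 and 2 in the same order, and the background was 0.177%, 1.08%, 0.536% and 1.12%. The 2 comparisons at a time point share their DMSO arrays, so that they are not independent of each other.

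The normalized log2 signal of Tbx2 at 6 h was 5.60 and 5.63 on the DMSO arrays. It was 4.86, 4.70 and 5.09 with WS1442 and 4.14, 4.35 and 4.25 with MeOH eluate. None of these groups overlapped, and they ran in the order DMSO, WS1442, MeOH eluate. Among all tested probes at 6 h, 15.1% were lower than DMSO without overlap with WS1442 and 25.3% with MeOH eluate. At 24 h, Tbx2 read 7.89 and 7.66 with DMSO. It read 6.13, 6.24 and 6.25 with WS1442 and 5.46, 5.54 and 5.29 with MeOH eluate. The order of the groups was the same, with a wider distance between DMSO and the treated arrays.

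Against DMSO, the log2 (fold change) of Tbx2 at 6 h was -0.73 (SE 0.14, adjusted p = 0.0111) with WS1442 and -1.37 (SE 0.14, adjusted p = 1.71e-05) with MeOH eluate. At 24 h it was -1.57 (adjusted p = 1.13e-05) and -2.34 (adjusted p = 1.04e-07), with the same SE. The call at 6 h with WS1442 rested on both DMSO arrays, since adjusted p was 0.106 without DMSO replicate 1 and 0.0558 without replicate 2, and it was 0.0842 when the 8 arrays of 6 h were fitted alone. Tbx2 was dim at 6 h, and with normexp background correction in place of the scanner's own correction its log2 (fold change) was -0.26 and -0.42 at 6 h and -1.02 and -1.34 at 24 h, all 4 still called.

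Tbx3 is the repressor that marks the conduction system. At 6 h it read 9.92 and 9.72 with DMSO and 9.99, 9.63 and 9.70 with WS1442, so that these groups overlapped. With MeOH eluate it read 9.26, 9.25 and 9.14, below all other arrays of that time point. In that comparison with DMSO, 25.3% of all tested probes were lower without overlap. At 24 h the DMSO arrays read 11.13 and 11.06, the WS1442 arrays 10.11, 10.09 and 9.99, and the MeOH eluate arrays 9.44, 9.54 and 9.39. The 3 groups were then in the order seen for Tbx2.

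The log2 (fold change) of Tbx3 with WS1442 at 6 h was -0.04 (SE 0.09, adjusted p = 0.87), with a 95% interval from -0.24 to 0.16. With MeOH eluate at 6 h it was -0.60 (adjusted p = 0.000576). At 24 h it was -1.03 (adjusted p = 1.09e-05) with WS1442 and -1.64 (adjusted p = 5.18e-08) with MeOH eluate.

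**Figure D1:**
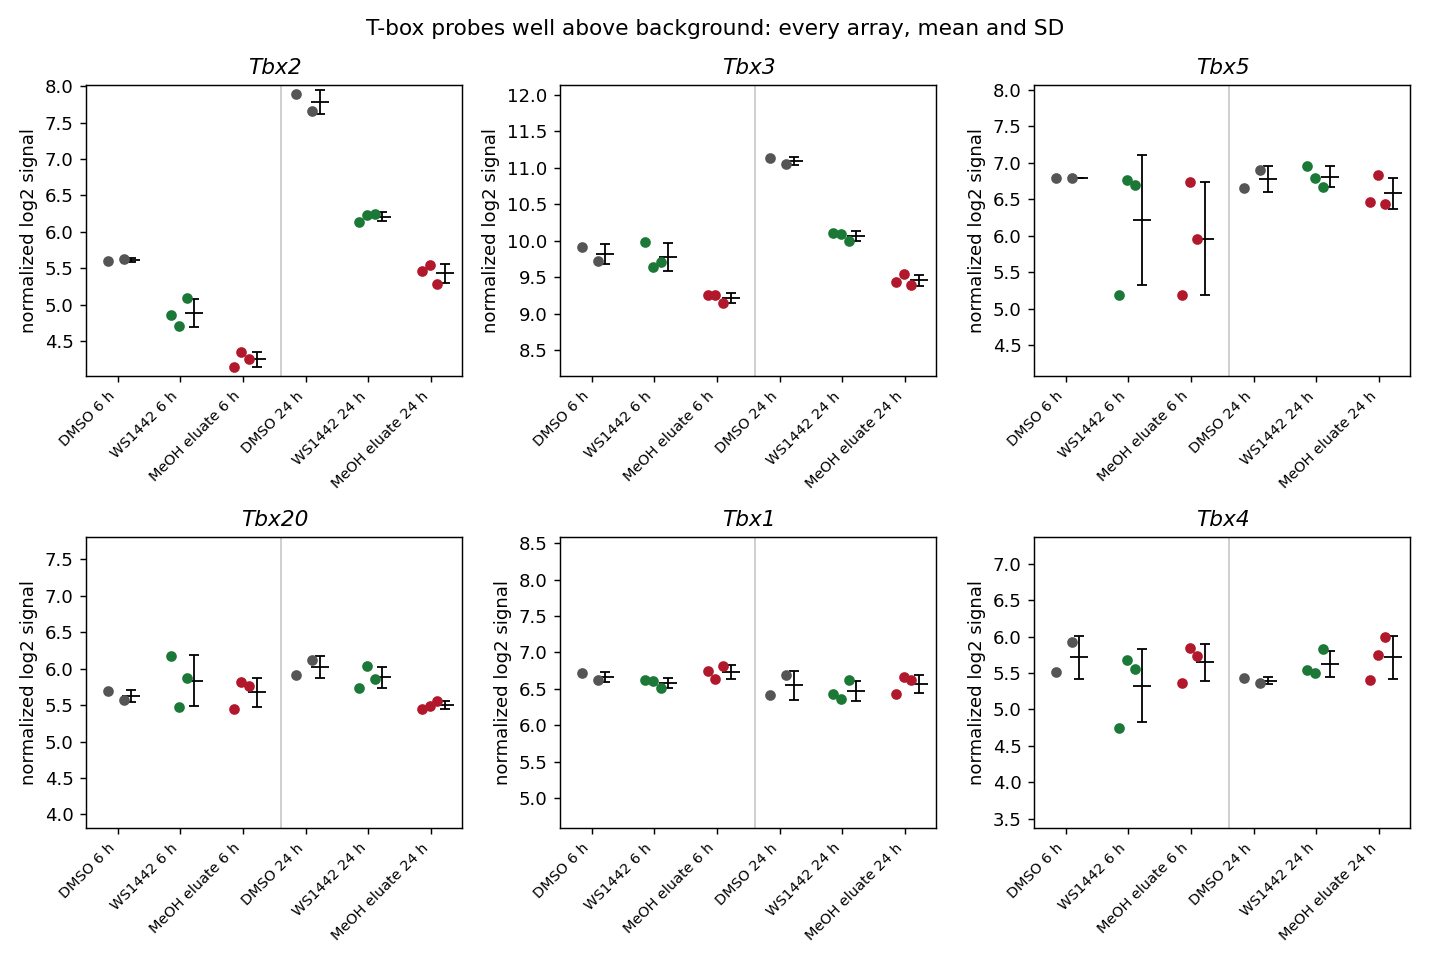
Normalized log2 signal of the 6 tested T-box probes (y axis, arbitrary units, 4 log2 units in each panel) for all 16 arrays in 6 groups (x axis). Each point is 1 array, black bars give the group mean and SD, and the grey line divides the time points, which are also different slides. The points of Tbx2 and Tbx3 step down from DMSO (grey) to WS1442 (green) to MeOH eluate (red) at 24 h, with DMSO means of 7.78 and 11.09 and MeOH eluate means of 5.43 and 9.45, while Tbx5 spreads widely at 6 h.

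Tbx5, an activator of chamber genes and of the cardiac conduction system, was not called in any comparison. At 6 h both DMSO arrays read 6.79, the WS1442 arrays 5.19, 6.77 and 6.69, and the MeOH eluate arrays 5.18, 6.74 and 5.96. All 6 treated arrays lay below both DMSO arrays, but 3 of them (6.77, 6.69 and 6.74) by little, and the SD was 0.89 with WS1442 and 0.78 with MeOH eluate. Among all tested probes, 15.1% were lower without overlap with WS1442 and 25.3% with MeOH eluate at 6 h. The log2 (fold change) was -0.58 (SE 0.42, adjusted p = 0.52) with WS1442 and -0.83 (SE 0.42, adjusted p = 0.201) with MeOH eluate.

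At 24 h Tbx5 read 6.66 and 6.91 with DMSO, 6.96, 6.80 and 6.67 with WS1442, and 6.47, 6.83 and 6.44 with MeOH eluate, and the groups overlapped. The log2 (fold change) was 0.03 with WS1442 (95% interval -0.87 to 0.92, adjusted p = 0.973) and -0.20 with MeOH eluate (95% interval -1.10 to 0.69, adjusted p = 0.829). With WS1442 this interval overlapped that of Tbx3 at the same time point (-1.23 to -0.83), and with MeOH eluate it did not (-1.84 to -1.44). The difference between the genes is tested below.

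Tbx20, which is required for chamber growth and represses Tbx2 in the chambers, was measured by its first probe only. At 6 h that probe read 5.69 and 5.57 with DMSO, 6.17, 5.47 and 5.87 with WS1442, and 5.45, 5.82 and 5.76 with MeOH eluate. At 24 h it read 5.92 and 6.12 with DMSO, 5.74, 6.03 and 5.86 with WS1442, and 5.45, 5.49 and 5.55 with MeOH eluate. With MeOH eluate at 24 h the log2 (fold change) was -0.52 (SE 0.18, adjusted p = 0.0623), which did not pass the threshold. It did pass when arrays were scaled to their 75th percentile (adjusted p = 0.0436) or when the 8 arrays of 24 h were fitted alone (adjusted p = 0.0262). In the other comparisons with DMSO the values were 0.21 and 0.05 at 6 h and -0.14 with WS1442 at 24 h.

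Tbx1, a factor of the second heart field and pharyngeal arches, stayed between 6.36 and 6.82 on all 16 arrays. Its log2 (fold change) against DMSO was -0.08 and 0.06 at 6 h and -0.08 and 0.02 at 24 h (SE 0.12, lowest adjusted p = 0.681). Tbx4, the neighbour of Tbx2 and a factor of the hindlimb and lung, ranged from 4.75 to 5.99. Its values were -0.39 and -0.07 at 6 h and 0.23 and 0.32 at 24 h (SE 0.26, lowest adjusted p = 0.469). The genomic neighbours of the repressor pair, Tbx4 and Tbx5, were not called, which alone does not set them apart from the pair. At 6 h the Tbx5 estimates, -0.58 and -0.83 (SE 0.42), were larger in size than those of Tbx3, -0.04 and -0.60. A difference between Tbx2 and Tbx4 was not tested, and that between Tbx3 and Tbx5 is given below.

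**Figure D2:**
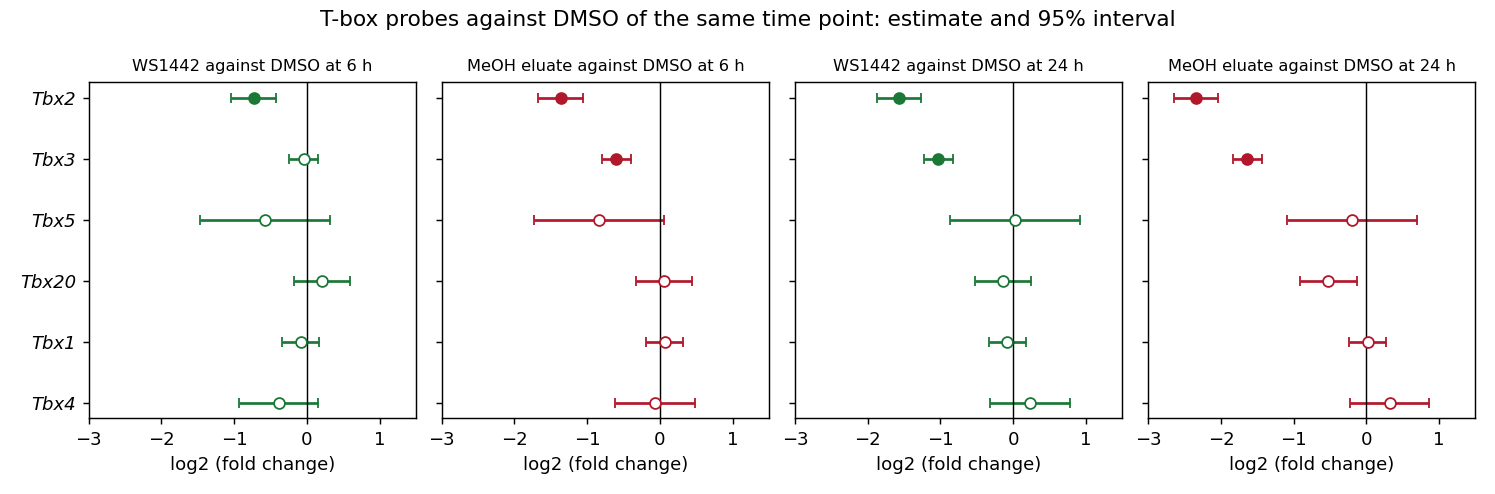
Log2 (fold change) against DMSO of the same time point (x axis) for the 6 tested T-box probes (y axis), in 1 panel for each of the 4 comparisons. Points are estimates, bars the 95% intervals, filled points are called at adjusted p under 0.05 and open points are not. Filled points occur for Tbx2 in 4 panels and for Tbx3 in 3, and Tbx5 has the widest bars.

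Tbx15, Tbx18 and the second Tbx20 probe were not well above background on any of the 16 arrays, so that no change is given for them. Tbx15 ranged from 1.35 to 3.27, Tbx18 from 1.32 to 1.71 and the second Tbx20 probe from 1.27 to 2.28. The lowest signal among probes well above background was between 3.11 and 4.01 on the log2 scale, depending on the array. The 2 Tbx20 probes therefore could not be compared, as only the first had a level above background.

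**Figure D3:**
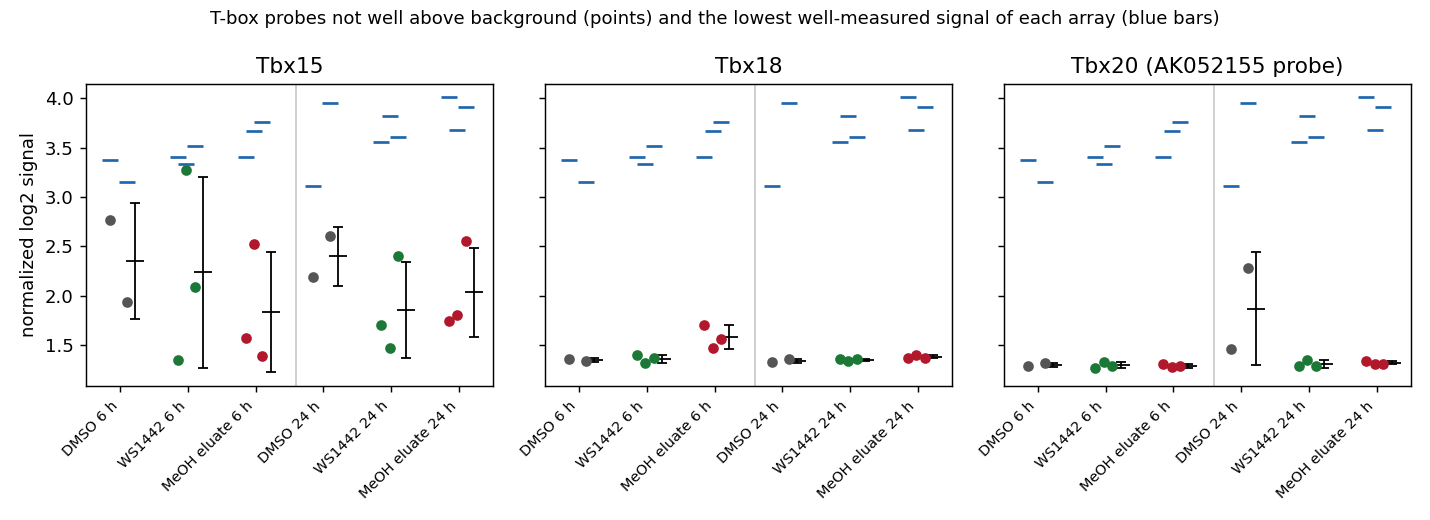
Normalized log2 signal (y axis, arbitrary units) of the 3 T-box probes that were not well above background, for the 16 arrays in 6 groups (x axis), with group mean and SD in black. Blue bars mark the lowest signal among probes well above background on the same array, between 3.11 and 4.01. All points lie below the blue bar of their array.

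The question whether the repressors moved apart from the activators was addressed within each array. The log2 signal of Tbx5 or Tbx20 was subtracted from that of Tbx2 or Tbx3. Members and rules were chosen with earlier results of these data known, and the arrays are those compared above. The p-values of the pairs are therefore not independent support for the changes of Tbx2 and Tbx3. The difference was then compared between the 6 treated and the 2 DMSO arrays of a time point, averaged over the time points, with a two-sided exact permutation test within time points (784 assignments, smallest possible p = 0.00128) and adjustment over the 4 pairs. Relative to Tbx20, Tbx2 was lower in treated than in DMSO arrays by 1.40 on the log2 scale (exact permutation p = 0.00128, the smallest the design allows, adjusted p = 0.0051). Relative to Tbx20, Tbx3 was lower by 0.73 (exact permutation p = 0.00255, adjusted p = 0.0051). Relative to Tbx5, Tbx2 was lower by 1.11 (exact permutation p = 0.0102, adjusted p = 0.0136).

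The difference between Tbx3 and Tbx5 moved by -0.43 and did not pass (exact permutation p = 0.323, adjusted p = 0.323). It held opposite signs at the time points, with 0.38 at 6 h (exact permutation p = 0.643) and -1.25 at 24 h (exact permutation p = 0.0357). At 24 h alone the other pairs moved by -1.87 (Tbx2 and Tbx5), -1.63 (Tbx2 and Tbx20) and -1.01 (Tbx3 and Tbx20), each with an exact permutation p of 0.0357, the smallest that 28 assignments allow. At 6 h alone they moved by -0.34, -1.18 and -0.45, with exact permutation p of 0.571, 0.0357 and 0.107.

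**Figure D4:**
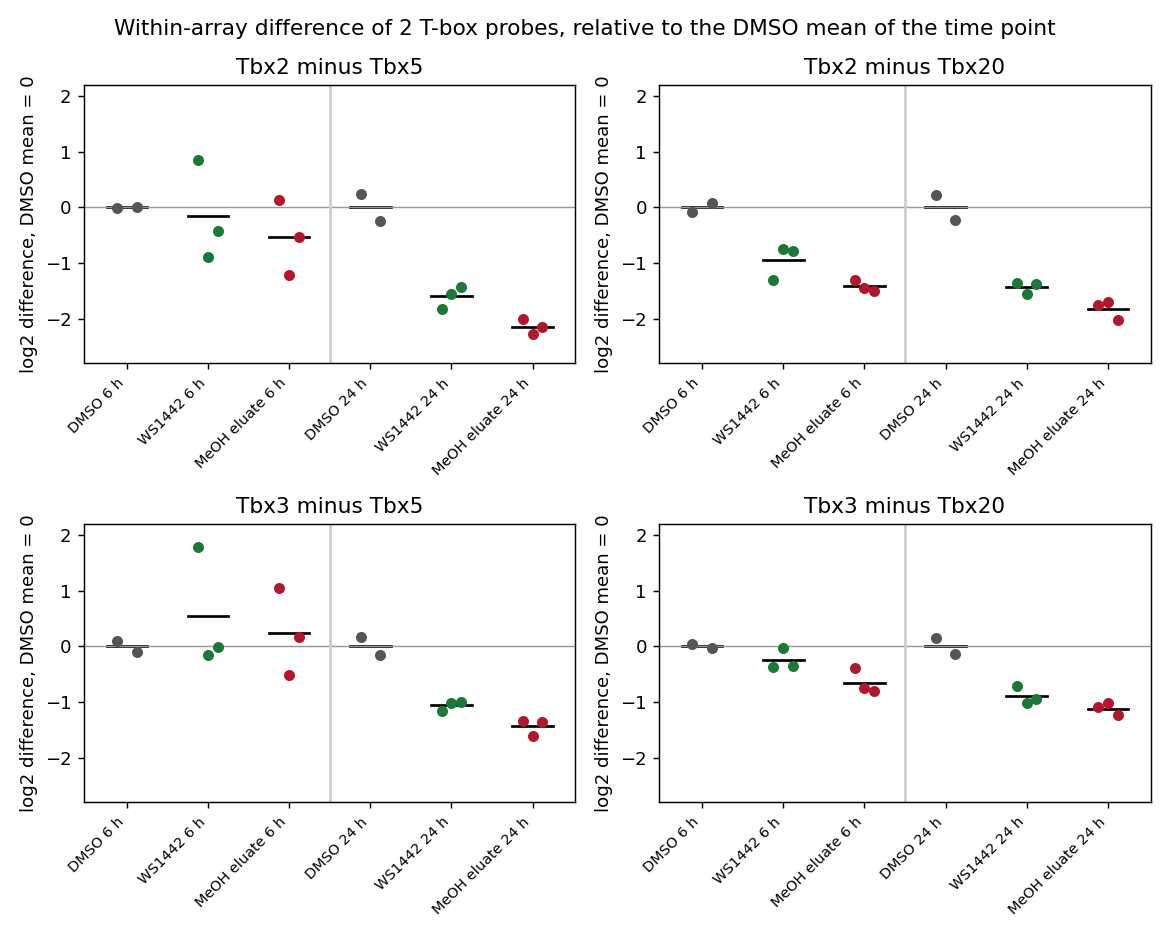
Log2 difference between 2 T-box probes on the same array (y axis), set to 0 at the DMSO mean of each time point, for the 6 groups (x axis). Points are arrays and black lines group means. At 24 h all treated points lie below the DMSO points in all 4 panels, whereas at 6 h the panels with Tbx5 show treated points on both sides of 0.

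MeOH eluate was also compared with WS1442 directly. The concentrations differed, 0.1 mg/ml against 0.25 mg/ml, so the comparison is between the preparations as applied. Tbx2 was lower with MeOH eluate than with WS1442, with a log2 (fold change) of -0.64 (SE 0.13, adjusted p = 0.00742) at 6 h and -0.77 (SE 0.13, adjusted p = 0.00141) at 24 h. Tbx3 gave -0.56 (SE 0.08, adjusted p = 0.00113) and -0.61 (SE 0.08, adjusted p = 0.00043). These were 2 of 6 member probes called lower at each time point, beside backgrounds of 7.41% and 6.11%. Neither passed 2-fold, which 0.477% of all tested probes did in the lower direction at 6 h and 0.31% at 24 h.

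Tbx5, Tbx20, Tbx1 and Tbx4 were not called between the preparations. For Tbx5 the difference was -0.25 (95% interval -1.05 to 0.55) at 6 h and -0.23 (95% interval -1.03 to 0.57) at 24 h. For Tbx20 it was -0.16 (95% interval -0.51 to 0.19) and -0.38 (95% interval -0.73 to -0.04, adjusted p = 0.139 in limma). The call for Tbx2 at 6 h was lost with normexp background correction (-0.16, adjusted p = 0.0943) and when the arrays of 6 h were fitted alone (adjusted p = 0.0532).

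The effect on the repressor pair was larger at 24 h than at 6 h with both preparations. The effect at 24 h minus that at 6 h was -0.84 (SE 0.20, adjusted p = 0.0166) for Tbx2 with WS1442 and -0.98 (SE 0.20, adjusted p = 0.00783) with MeOH eluate. For Tbx3 it was -0.99 (SE 0.13, adjusted p = 0.000973) and -1.04 (SE 0.13, adjusted p = 0.00019). With each preparation 2 of 6 member probes were called lower, where the background was 6.66% with WS1442 and 3.38% with MeOH eluate. The Tbx2 value with WS1442 was not called without DMSO 6 h replicate 1 (adjusted p = 0.0659) or without DMSO 24 h replicate 1 (adjusted p = 0.0893). Each DMSO array enters both effects of its time point, and slide cancels in each of them only as far as it acts alike on treated and DMSO arrays.

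Among all genes, the patterns most like the pair were read as Pearson correlations over the 16 arrays after centring each time point, for the brightest tested probe of 17028 named genes. Tbx2 was followed most closely by Amot (r = 0.98), an adaptor protein of the Hippo pathway, Ruvbl1 (r = 0.98), a chromatin remodelling ATPase, and Sema3f (r = 0.98), a secreted guidance protein. Tbx3 was followed by Prdm6 (r = 0.98), a repressor of smooth muscle genes, Myc (r = 0.98), a growth-promoting transcription factor, and Amot (r = 0.97). At 24 h, DMSO, WS1442 and MeOH eluate gave mean log2 signals of 13.75, 12.98 and 12.44 for Amot and of 9.88, 8.84 and 8.24 for Sema3f. The points share treatments and arrays, so these correlations describe a common order of the groups and carry no p.

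Of the other T-box genes, 9 of 9 on the array were tested. With WS1442, 1 was called lower at 6 h and 1 at 24 h. With MeOH eluate, 4 were lower and 2 higher at 6 h, and 1 was lower at 24 h. Of all tested probes, 1.16% and 12.2% were called lower with WS1442 at 6 h and 24 h, and 8.39% and 8.2% with MeOH eluate. Those called higher were 3.52% and 11.3% with WS1442 and 7.85% and 8.92% with MeOH eluate. The list's median log2 (fold change) was -0.08, -0.14, -0.02 and -0.02 in the order WS1442 and MeOH eluate at 6 h, then at 24 h, beside medians over all tested probes of 0.00, -0.01, 0.02 and 0.01. T (Brachyury), the founding T-box factor of the primitive streak, was lower with MeOH eluate at 6 h (log2 (fold change) -1.29, adjusted p = 1.91e-06) and was -0.05 at 24 h. Tbx22, known from palate formation, was higher with MeOH eluate at 6 h (1.23, adjusted p = 0.0024) and 0.02 at 24 h. Tbr1, known from the cerebral cortex, was called lower with MeOH eluate at 6 h (adjusted p = 0.0168) and is among the 4 counted. It was well above background only on the DMSO arrays of 6 h and passed the filter through them alone. That filter favours a call of this kind, so no weight is put on it and no fold is given. The call was also lost without either DMSO array of 6 h. Eomes, an early mesoderm factor named after its values were seen, was lower in 3 of 4 comparisons (-0.39, -0.91 and -0.74) and was -0.20 with WS1442 at 24 h (adjusted p = 0.125). Its call with WS1442 at 6 h was lost without DMSO 6 h replicate 1 (adjusted p = 0.271) or replicate 2 (adjusted p = 0.0549) and without WS1442 6 h replicate 2 (adjusted p = 0.0661) or replicate 3 (adjusted p = 0.0703), and it held in 8 of 11 processing alternatives.

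Of 16 partners of the cardiac T-box factors, 15 were tested, Gata5 being below background. The numbers called lower were 1, 2, 3 and 6 in the same order of comparisons, and those called higher 0, 2, 2 and 0. Beside them stand backgrounds of 1.16%, 8.39%, 12.2% and 8.2% called lower and 3.52%, 7.85%, 11.3% and 8.92% called higher. The medians were -0.08, 0.05, -0.15 and -0.08. Gata6, a zinc finger factor of heart and endoderm, was lower with MeOH eluate at 6 h (-1.79, adjusted p = 9.88e-07) and 24 h (-1.48, adjusted p = 3.56e-06). With WS1442 it was lower at 6 h (-0.62, adjusted p = 0.0207), a call that was lost without DMSO 6 h replicate 1 (adjusted p = 0.104), without DMSO 6 h replicate 2 (adjusted p = 0.122) and without WS1442 6 h replicate 2 (adjusted p = 0.0595), and was -0.35 at 24 h (adjusted p = 0.0786). Gata4, a partner of Tbx5 at chamber genes, was lower at 24 h with WS1442 (-0.72, adjusted p = 0.000978) and with MeOH eluate (-1.38, adjusted p = 3.39e-06). Nkx2-5, the homeodomain partner of Tbx5 and Tbx20, was between -0.34 and -0.15 in the 4 comparisons and was not called.

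Of 22 upstream signals and regulators, 21 were tested. Those called higher numbered 5, 5, 4 and 5, and those called lower 2, 8, 2 and 7, with medians of -0.04, -0.11, -0.05 and -0.10. The background was 3.52%, 7.85%, 11.3% and 8.92% called higher and 1.16%, 8.39%, 12.2% and 8.2% called lower. Foxc2, a forkhead factor of the second heart field, was higher in all 4 comparisons, by 1.86 and 3.24 at 6 h and by 0.78 and 1.44 at 24 h on the log2 scale (adjusted p at most 0.000209). Foxc1, its relative, was higher by 1.01 and 1.58 at 6 h and by 0.81 and 0.76 at 24 h, although with WS1442 at 6 h it was 0.67 without DMSO 6 h replicate 1 and not called (adjusted p = 0.0508). Aldh1a2, the enzyme that makes retinoic acid in the embryo, was higher at 24 h, by 2.39 with WS1442 (adjusted p = 6.32e-07) and 2.77 with MeOH eluate (adjusted p = 3.96e-08), and was 0.18 and 0.19 at 6 h.

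Bone morphogenetic proteins (BMPs) induce Tbx2 and Tbx3, and 3 of their ligands are given here. Bmp5 was called higher at 6 h (1.65 with WS1442 and 1.13 with MeOH eluate), from a DMSO level that was above background on 1 of 2 arrays, and without DMSO 6 h replicate 1 the values were 0.86 and 0.34 and were not called. The WS1442 call was also lost without WS1442 6 h replicate 3 (adjusted p = 0.0527), and the MeOH eluate call without MeOH eluate 6 h replicate 1 (adjusted p = 0.0757), replicate 2 (adjusted p = 0.067) or replicate 3 (adjusted p = 0.0593). Of 10 processing alternatives, 7 kept the WS1442 call and 3 the MeOH eluate call, and with normexp background correction the values were 0.22 and 0.12 and were not called. Bmp4, named after its values were seen, was lower with WS1442 at 6 h (-0.32, adjusted p = 0.0447), with MeOH eluate at 6 h (-0.77, adjusted p = 2.85e-05) and with MeOH eluate at 24 h (-0.46, adjusted p = 0.00146), and was -0.21 with WS1442 at 24 h (adjusted p = 0.0874). The Bmp4 call with WS1442 at 6 h was lost without DMSO 6 h replicate 1 (adjusted p = 0.465) or replicate 2 (adjusted p = 0.0533) and without WS1442 6 h replicate 2 (adjusted p = 0.116) or replicate 3 (adjusted p = 0.0947), and it held in 5 of 11 processing alternatives. Bmp2, likewise named after its values were seen, lay between -0.04 and 0.28 and was not called. Hey2, a repressor of Tbx2 in the chambers, was called lower at 24 h (adjusted p = 0.0314 with WS1442 and 0.0164 with MeOH eluate). With WS1442, 1 of 3 treated arrays was well above background, so that the log2 (fold change) of -1.21 rests mostly on signals near background. It ran from -1.64 to -0.78 without each array in turn and was -0.28 at its smallest among 10 processing alternatives, 9 of which kept the call. With MeOH eluate no array was, and the fall was at least 1.83-fold, set against the lowest signal well above background. A filter that is met in any 1 group can favour a call of this kind. The WS1442 call was lost without DMSO 24 h replicate 1 (adjusted p = 0.326), WS1442 24 h replicate 2 (adjusted p = 0.0975) or replicate 3 (adjusted p = 0.0505). The MeOH eluate call was lost without DMSO 24 h replicate 1 (adjusted p = 0.224) or MeOH eluate 24 h replicate 3 (adjusted p = 0.0676).

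Of 25 reported targets of T-box factors, 22 were tested, Myh6, Hapln1 and Bmp10 being below the filter. Those called higher numbered 2, 6, 5 and 4, and those called lower 1, 5, 4 and 2, with medians of 0.02, 0.18, 0.15 and -0.02. The background was again 3.52%, 7.85%, 11.3% and 8.92% called higher and 1.16%, 8.39%, 12.2% and 8.2% called lower. Gja5, a gap junction gene of atria and conduction system that Tbx2 and Tbx3 repress, was called higher at 24 h with WS1442 (adjusted p = 0.0451) and MeOH eluate (adjusted p = 0.00507). It was not well above background on either DMSO array of 24 h, so the rise is given as at least 1.67-fold and at least 2.45-fold. As for Hey2, a filter that is met in any 1 group can favour such a call. The WS1442 call for Gja5 was lost without DMSO 24 h replicate 1 (adjusted p = 0.52), WS1442 24 h replicate 1 (adjusted p = 0.125) or replicate 3 (adjusted p = 0.153), and the MeOH eluate call without DMSO 24 h replicate 1 (adjusted p = 0.111). The WS1442 call held in 2 of 10 processing alternatives, with adjusted p up to 0.369 in the others, and the MeOH eluate call in 9 of 10.

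Nppa, the atrial natriuretic peptide gene that the same repressors hold down, was not called, with -1.05 and -1.14 at 24 h and overlapping groups (adjusted p = 0.134 and 0.129). Cdkn1a, a cell cycle inhibitor repressed by Tbx2 and Tbx3, was higher in all 4 comparisons, by 0.39 and 0.33 at 6 h and by 0.88 and 0.80 at 24 h, although both calls at 6 h were lost without DMSO 6 h replicate 1 (adjusted p = 0.0824 and 0.0518). Cdkn2a, the other cell cycle inhibitor of that kind, went the other way where it was called, with -0.45 with MeOH eluate at 6 h (adjusted p = 0.0221) and -0.52 with WS1442 at 24 h (adjusted p = 0.00671). The first of these Cdkn2a calls was lost without DMSO 6 h replicate 1 (adjusted p = 0.116) or replicate 2 (adjusted p = 0.104) and without MeOH eluate 6 h replicate 1 (adjusted p = 0.0788) or replicate 3 (adjusted p = 0.0648), and the second without DMSO 24 h replicate 1 (adjusted p = 0.118). Nppa, Cdkn1a and Cdkn2a were named after their values were seen. Fgf10, a second heart field ligand on both the upstream and the target list, was lower with MeOH eluate at 6 h (-1.26, adjusted p = 9.01e-07) and at 24 h (-1.20, adjusted p = 7.91e-07). Ndrg1, a stress-responsive gene repressed by Tbx2, was higher with MeOH eluate at 6 h (1.20, adjusted p = 2.59e-05) and -0.12 at 24 h. With WS1442 at 24 h it was called higher (0.39, adjusted p = 0.0434), but not without DMSO 24 h replicate 1 (adjusted p = 0.296) or replicate 2 (adjusted p = 0.0502), nor without WS1442 24 h replicate 2 (adjusted p = 0.0749) or replicate 3 (adjusted p = 0.16), and the call held in 4 of 11 processing alternatives.

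Markers of other cell types moved in the same comparisons as Tbx2 and Tbx3. In bulk samples, fewer cells of a type and less RNA per cell cannot be told apart. The summed signal of the 5 early mesoderm markers (T, Mesp1, Mixl1, Eomes and Kdr, all above background) on the log2 scale was 11.69 to 11.73 with DMSO, 11.06 to 11.21 with WS1442 and 10.49 to 10.56 with MeOH eluate at 6 h. At 24 h it was 11.17, then 10.81 to 10.87, then 10.43 to 10.47 in the same order, and 2, 3, 2 and 3 of its 5 genes were called lower. For all marker lists, the backgrounds in the order WS1442 and MeOH eluate at 6 h, then at 24 h, were as follows. Of all tested probes, 1.16%, 8.39%, 12.2% and 8.2% were called lower and 3.52%, 7.85%, 11.3% and 8.92% higher. The sums stood in the order seen for Tbx2. Mixl1, a primitive streak homeobox gene, did so too, with means of 10.92, 9.93 and 8.53 at 6 h and 10.15, 9.69 and 8.96 at 24 h. As the brightest of the 5 markers with DMSO, Mixl1 weighs most in those sums, so they are not observations separate from it. Eomes also kept the order. Others of the list did not, since at 6 h Mesp1 averaged 7.83, 7.99 and 7.97 and Kdr 8.86, 8.79 and 8.94. At 24 h Mesp1 averaged 7.70, 7.04 and 7.22 and T was at 7.39 with WS1442 and 7.51 with MeOH eluate. T and Eomes are also among the other T-box genes above.

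The endoderm list, with 3 of 5 markers tested, summed to 10.02 to 10.10, 9.92 to 9.94 and 9.68 to 9.97 at 6 h and to 10.16 to 10.27, 10.22 to 10.44 and 9.96 to 10.20 at 24 h. The numbers called lower were 0, 2, 1 and 1, and 1 was called higher with WS1442 at 24 h. Sox17, an endoderm transcription factor, stood in the order seen for Tbx2, with means of 6.68, 6.43 and 6.02 at 6 h and 7.46, 6.22 and 5.82 at 24 h. It was called lower with MeOH eluate at 6 h (adjusted p = 0.00625, but 0.0819 without DMSO 6 h replicate 1) and with both preparations at 24 h (adjusted p = 4.31e-05 and 1.88e-06). The other tested markers, Afp and Foxa2, did not keep that order at both time points. Afp averaged 9.57, 9.46 and 9.49 at 6 h and 9.22, 9.74 and 9.35 at 24 h. Afp was the marker called higher with WS1442 at 24 h. Foxa2 averaged 7.62, 7.44 and 6.90 at 6 h, in that order, but 8.68, 8.43 and 8.56 at 24 h.

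The sum of the 5 stem cell markers overlapped between the groups, with 13.70 to 13.82 at 6 h and 12.88 to 13.14 at 24 h, but Pou5f1 makes up most of it. With MeOH eluate at 6 h, 5 of 5 were lower in value with a median of -0.40, and 1 was called, Nanog, a pluripotency factor (-0.94, adjusted p = 0.00162). With WS1442 at 24 h, 1 of 5 was called lower. The cardiac sum, with 6 of 7 markers tested, had Actc1 as most of its signal. At 6 h it was 14.39 to 14.53 with DMSO, 14.12 to 14.32 with WS1442 and 14.14 to 14.29 with MeOH eluate. At 24 h it was 13.88 to 13.90, 13.68 to 13.96 and 13.68 to 13.85. Treated arrays lay below DMSO at 6 h with both preparations and at 24 h with MeOH eluate only. Of single tested probes, 15.1% with WS1442 and 25.3% with MeOH eluate were lower without overlap at 6 h. At 6 h, 1 tested cardiac marker was called higher and 0 lower with each preparation. Of these 6 markers, 3 were called lower in each comparison at 24 h and 1 higher with WS1442, with medians of -0.26 and -0.42. The marker called higher was Mef2c, a cardiac progenitor marker, with means of 6.40, 6.88 and 6.56 at 24 h. Myl7, an atrial light chain of myosin, went from higher at 6 h (0.61 and 1.05) to lower at 24 h (-1.17 and -2.02). Its call with WS1442 at 6 h was lost without DMSO 6 h replicate 1 (adjusted p = 0.469) and without WS1442 6 h replicate 1 (adjusted p = 0.0744) or replicate 3 (adjusted p = 0.152), and held in 5 of 11 processing alternatives.

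The mesenchyme sum, with 3 of 5 markers tested and Col3a1 and Postn below the filter, was 11.28 to 11.37, 10.75 to 10.82 and 10.74 to 10.87 at 24 h, with 1 gene called higher and 1 lower in each comparison. Col1a1, a collagen gene, was lower (-1.09 and -1.13), whereas Twist1, a factor of mesenchymal cells, was higher (0.34 and 0.47), although its WS1442 call was lost without DMSO 24 h replicate 2 (adjusted p = 0.0697). The 4 neuroectoderm markers summed to 12.53 to 12.56 with DMSO at 24 h, 12.85 to 12.93 with WS1442 and 12.83 to 13.01 with MeOH eluate, with 3 and 2 called higher. Nes, with means of 11.28, 12.06 and 11.86, and Tubb3, with 11.73, 11.62 and 11.89, make up most of these sums. Tubb3 was thus lower in value with WS1442, and Pax6 was well above background on 1 of 2 DMSO arrays of 24 h. Of 3 endothelial and 4 primitive blood markers tested, 1 endothelial marker was called lower and 1 blood marker higher, both with MeOH eluate at 24 h. The endothelial marker was Cdh5, well above background on 0 of 3 MeOH eluate arrays of 24 h. It passed the filter only through the DMSO and WS1442 arrays of 24 h, which favours such a call, so no weight is put on it. Of the blood markers, Hbb-bh1 was well above background on 1 of 2 DMSO arrays of 24 h. Mixl1, Mesp1, Sox17, Afp, Foxa2, Nanog, Myl7, Mef2c, Col1a1, Twist1, Nes, Tubb3, Pax6, Cdh5 and Hbb-bh1 were named after their values were seen. The part of these shifts in the changes of Tbx2 and Tbx3 was not tested.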

How the data were processed

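RNA of 16 samples was labelled with Cy3 by the authors and hybridised to 1-colour Agilent arrays. The deposited intensity values of each array come from Agilent Feature Extraction 11.5.1.1, are background corrected and not normalized between arrays. A second deposited table holds linear intensity values after the authors' quantile normalization. All of its 16 columns correlated best with their own array (lowest r 0.997), and its log2 values differed by at most 0.0126 from those used here for the tested member probes. Spots flagged as non-uniform were left out and spots of 1 probe averaged. Intensities were set to log2 and quantile normalized, and a probe was kept if all arrays of 1 or more groups had it well above background.

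Only the second Tbx20 probe carried its symbol in the files. The other 8 member probes were named through RefSeq accessions (annotation GRCm38.p6, used for names and gene order only), as were most of the 43081 named probes. 17147 probes had no name and 45 several.

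A model with 6 group means was fitted in limma 3.58.1 (R 4.3.3) with eBayes and trend, and p-values were adjusted by the Benjamini-Hochberg method. Procedures were tested on simulated data. The methods name Student's t-test for pairwise comparisons in general, and it was run as an alternative called the methods' t-test. Other alternatives covered scaling, background correction, filters, probe choice, fits by time point, replicate block, array weights, variance prior and leaving out each array. Named genes were the members and, per list, at most 5 genes called and past 2-fold in a comparison with DMSO, by largest change, plus the 3 genes most correlated with Tbx2 and with Tbx3. Members, lists and rules were chosen with earlier results of these data known. No molecule count stands behind an array signal, so the number of arrays limits precision.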

Additional observations from a re-analysis of the deposited data

Results flagged for a closer look

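The treatment effect differed between the time points for Tbx2 and Tbx3, by the test of the difference itself in limma. The effect at 24 h minus that at 6 h was -0.84 (adjusted p = 0.0166) for Tbx2 with WS1442 and -0.98 (adjusted p = 0.00783) with MeOH eluate. It was -0.99 (adjusted p = 0.000973) for Tbx3 with WS1442 and -1.04 (adjusted p = 0.00019) with MeOH eluate. For Tbx5 the same differences were 0.61 and 0.63 (adjusted p = 0.555 and 0.598), and for Tbx20 they were -0.35 and -0.57 (adjusted p = 0.414 and 0.216).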

How the results depend on the processing

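Beside their main values, the 6 tested T-box probes gave 816 values under the alternatives, of which 769 kept both direction and call, 17 lost the call, 2 gained it and 28 changed sign. The methods' t-test with Benjamini-Hochberg adjustment called 0 members in each comparison except 1 with MeOH eluate against DMSO at 24 h (Tbx3), and over all probes it called 1, 5, 7 and 203 against DMSO and 6 and 245 between the preparations. At the limits of more than 2-fold and p under 0.05 it called 0, 1, 2 and 2 members against DMSO and 0 and 0 between the preparations, as limma did. The count of members with WS1442 at 6 h was 0 when 6 h was fitted alone and 0 to 1 without each array in turn, being 0 without either DMSO array. Between the preparations at 6 h it was 1 with normexp and 1 when 6 h was fitted alone, and for the WS1442 effect at 24 h minus 6 h it was 1 to 2 without each array in turn. The difference of Tbx3 and Tbx5 passed with normexp (-0.58, exact permutation p = 0.037) and at 24 h alone (-1.25, exact permutation p = 0.0357), and was -0.57 to -0.34 without each array in turn.

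The signs that changed belonged to uncalled values near 0. Tbx3 with WS1442 at 6 h was 0.023 under 75th percentile scaling and -0.15 to 0.055 without each array in turn. Tbx1 with MeOH eluate at 24 h was -0.0016 with normexp, -0.0083 with the replicate block and -0.12 to 0.16 without each array, and its WS1442 effect at 24 h minus 6 h was -0.0030 with normexp, -0.0053 with array weights and -0.14 to 0.15 without each array. Without each array in turn the ranges were -0.021 to 0.16 (Tbx20) and -0.28 to 0.14 (Tbx4) for MeOH eluate at 6 h, -0.10 to 0.15 (Tbx5) and -0.22 to 0.061 (Tbx1) for WS1442 at 24 h, -0.34 to 0.0064 (Tbx20) and -0.77 to 0.14 (Tbx5) between the preparations at 6 h, -0.051 to 0.24 (Tbx4) between them at 24 h, and -0.19 to 0.10 (Tbx1) for the MeOH eluate effect at 24 h minus 6 h. The cause was not tested.

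Replicate numbers did not pair the arrays. Deviations of same-numbered arrays correlated between -0.22 and 0.28, with 1 of 14 pairs over 0.1. With the replicate block the members called against DMSO numbered 1, 2, 2 and 2, between the preparations 2 and 2, and for the effects at 24 h minus 6 h 2 and 2, and over all probes 888 in place of 1719 were called with WS1442 at 6 h. Fitting 6 h alone gave 435 there and 1822 in place of 4252 between the preparations. Of 1001 alternative values for the 63 calls of named list genes and markers, 821 kept the call, 180 lost it (61 of these under the methods' t-test) and 0 changed sign. Calls of Afp, Mef2c, Cdh5 and the neuroectoderm and blood markers were not among the 63.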
